A study of Mus musculus with 20 samples.

Results

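The genes described here are 30 genes of the pancreatic mesenchyme, the connective tissue and mural cells that surround and enter the islets. They were taken by name, with no threshold on their values, from a list drawn up with earlier results of these data known. Of these genes, 16 code for collagens and other matrix proteins and 7 code for proteins of the contractile apparatus. The other 7 are used to tell mesenchymal cell types apart: receptors, filaments, surface proteins and Rgs5, a regulator of G protein signalling. All 30 were found among the 26211 genes of the deposited table, and all 30 passed the filter on low values, a mean of at least 10. RNA came from pancreatic islets of P2Y14-knockout mice (KO) and wild-type mice (WT), both on the strain C57BL/6 x 129S6. The study has 20 libraries, KO.1 to KO.10 and WT.11 to WT.20. Islets were freed by enzyme digestion of the inflated pancreas, picked by hand under a microscope and cultured overnight in medium with serum. The labels give no age, sex or deleted stretch of the receptor gene, and nothing in them ties each library to an animal of its own, so p-values measure the spread between these libraries, which may be technical.

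Fibroblasts and pancreatic stellate cells make the fibrillar collagens and the proteoglycans that bind them, and stellate cells take on smooth muscle proteins when they are activated. Pericytes wrap the capillaries of the islet and carry the receptor Pdgfrb, and vascular smooth muscle cells surround its arterioles. The contractile genes are textbook targets of serum response factor, which binds a sequence called the CArG box together with myocardin family coactivators. P2Y14 is a receptor that responds to UDP-sugars and signals through G proteins, and the title of the study names smooth muscle function and insulin release. The comparison of the genotypes therefore asks whether the islets of knockout mice differ in the RNA of their mesenchymal cells.

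RefSeq promoter windows on GRCm38.p6 were available for 20 of the 30 genes, 5 of them contractile. A CArG-like motif, CC and GG around a core of 6 bases that are A or T with at most 1 exception, was searched in the 250 bases before each start site, and since it reads alike on both strands 1 search covers both. The windows of 3 of these genes held it, and those of Acta2 and Myl9, both contractile, held 2 copies each, the only members' windows that did. At least 1 copy was present in 8.59% of the 32851 windows of all genes and 2 copies in 0.67%. These stretches are shown, 5′ to 3′ on the strand of the gene with the matches in capitals. Acta2 stands for the contractile genes in the relations that follow, and the level of Col1a2 is added to a later fit. Col1a1, the collagen used in those relations, had no window. A match is a description of the letters and not a binding site.
Acta2, chr19:34255374-34255493, minus strand, first bases of the matches at -84 and -34: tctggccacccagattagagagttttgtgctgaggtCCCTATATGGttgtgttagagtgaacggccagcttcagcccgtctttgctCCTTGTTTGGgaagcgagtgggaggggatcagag
Myl9, chr2:156775284-156775403, plus strand, at -161 and -99: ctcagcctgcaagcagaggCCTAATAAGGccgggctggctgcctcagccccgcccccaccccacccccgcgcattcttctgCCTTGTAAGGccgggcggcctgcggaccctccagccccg
Col1a2, chr6:4505378-4505527, plus strand, at -228: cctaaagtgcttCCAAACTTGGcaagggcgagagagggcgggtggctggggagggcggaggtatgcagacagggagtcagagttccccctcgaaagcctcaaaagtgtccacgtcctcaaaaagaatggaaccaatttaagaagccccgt
No copy was found in the windows of Cnn1, Mylk and Tpm2 (contractile), or of Col3a1, Col5a1, Sparc, Pdgfra, Rgs5 and Vim, which says only that these letters are not in the windows searched.

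The targeted gene P2ry14 had a normalized read count of 51.2 ± 31.4 in KO and 151 ± 67.4 in WT (SD, n = 10 each). It ranged from 0 to 114 in KO and from 79.7 to 262 in WT, and the genotypes overlapped: the library labelled KO.2, at 114, stood above 5 WT libraries, and KO.10, at 86.0, above WT.12. Ins2, the main insulin gene of the mouse, was at or above 13377056 in every library, and Gcg and Sst were high in both genotypes, as the tissue label says. Libraries held 34520628 to 199847246 reads over genes, and acinar genes took 3.62% to 19.5% of them. The 30 members together took 0.0145% to 0.0846% of the reads in KO and 0.0160% to 0.123% in WT. Levels below are normalized read counts, that is reads scaled by each library's size factor. Fold changes are KO minus WT on the log2(value + 1) scale. The added 1 makes changes of low genes smaller, while a library at 0 can make a fold change larger. Timp1, at 0 in KO.5, had a fold change of -0.72, beside 0.10 without that library.

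No member of the mesenchymal list passed the test between KO and WT, and the values of the genotypes overlapped for every member. In the limma fit across all 17482 tested genes with Benjamini-Hochberg adjustment, 49 genes (0.280%) passed an adjusted p of 0.05, 28 of them higher in KO (0.160%) and 21 lower (0.120%), and 0 of the 30 members did in either direction. At an unadjusted p under 0.05 stood 8.94% of all tested genes and 0 of the 30 members, and edgeR and DESeq2 on the recovered reads also gave 0 members at that level. Of the members 16 had a fold change above 0 and 14 below it, beside 49.6% above 0 among all genes. The medians were -0.02 for the 16 matrix genes, 0.17 for the 7 contractile genes and 0.02 for the 7 identity genes, beside -0.002 for all tested genes. For no member were all values of one genotype above all values of the other, which held for 0.0343% of all genes. The smallest adjusted p of a member was 0.774 by limma, for Cnn1.

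**Figure D1:**
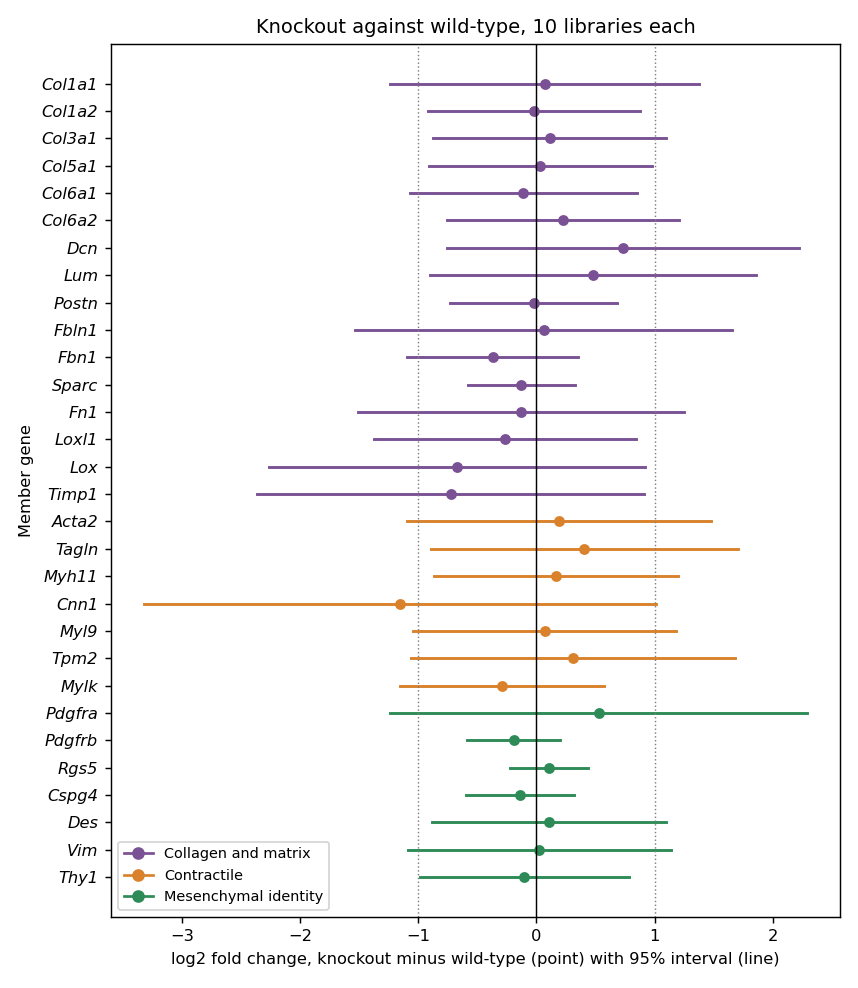
Log2 fold change of each of the 30 members, KO minus WT, with its 95% confidence interval from the limma fit (10 libraries per genotype), coloured by group; dotted lines mark a 2-fold difference. Every interval spans 0, and those of Rgs5, Pdgfrb, Cspg4 and Sparc lie well within the dotted lines.

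The absence of a call has to be read with the width of the intervals. The 95% interval of the fold change lay within 2-fold in either direction for 8 members, and within 1.5-fold for 2 of them, Rgs5 and Sparc. For the other 22 members it included a 2-fold difference in at least 1 direction. A 2-fold change in at least 1 direction was therefore not excluded for most of these genes. In bulk RNA, fewer cells of a type and less RNA per cell cannot be told apart.

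Among the fibrillar collagens, Col1a1 and Col1a2 code for the chains of type I collagen, the main fibre of scar and capsule, and Col3a1 codes for the type III collagen that runs with it. Col1a1 ranged from 307 to 3142 in KO (median 1225) and from 56.9 to 4896 in WT (median 1460.1). Its lowest and its highest library, WT.19 and WT.20, were both wild type, so the KO values lay inside the WT range. The fold change was 0.07 with a standard error of 0.63 (adjusted p = 0.985 by limma). Col3a1 ranged from 2485 to 12888 in KO (median 4147) and from 607 to 22269 in WT (median 5001), again with every KO library inside the WT range. Its fold change was 0.11 with a standard error of 0.48 (adjusted p = 0.962 by limma). Col1a2 had medians of 3631 and 3878 in KO and WT and a fold change of -0.02 with a standard error of 0.43. Col5a1, a minor chain of the same fibres, had medians of 191 and 196, and its fold change was 0.03.

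Type VI collagen forms beaded filaments around cells. Col6a1 had a median of 858 in KO and 1086 in WT, with a fold change of -0.11, and Col6a2 had medians of 1024 and 1314 with a fold change of 0.22. Both fold changes were smaller than their standard errors of 0.46 and 0.47, and their order of sign was not stable: Col6a2 was at -0.01 by edgeR and -0.08 without WT.19, and Col6a1 at 0.07 with library weights.

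Dcn codes for decorin, a small proteoglycan on collagen fibres that marks fibroblasts. Dcn ranged from 669 to 16628 in KO (median 2129) and from 63.5 to 7625 in WT (median 2059.5). Its medians were close together, while its means were 4678 ± 5175 in KO and 2902 ± 2664 in WT (SD, n = 10 each). The highest library, KO.10, stood above every WT library and the lowest, WT.19, below every KO library. The fold change was 0.73 with a standard error of 0.72 (adjusted p = 0.797 by limma), and 0.21 without WT.19. Lum, lumican of the same proteoglycan family, ran from 21.3 to 413 in KO and from 3.73 to 449 in WT, and its fold change was 0.48 with a standard error of 0.67, and 0.06 without WT.19.

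Sparc codes for osteonectin, a collagen-binding glycoprotein that endothelial cells also make. It ranged from 4354 to 15112 in KO (median 8443) and from 5180.2 to 14081 in WT (median 9045), and the genotypes overlapped along nearly the whole range. The fold change was -0.13 with a standard error of 0.22 (adjusted p = 0.889 by limma). Fn1, fibronectin, ranged from 119 to 1780.2 in KO (median 795) and from 61.6 to 3007 in WT (median 626), a fold change of -0.13 with a standard error of 0.66 (adjusted p = 0.969 by limma). Fbn1, fibrillin of the elastic microfibrils, was among the 3 members with the smallest p. It ranged from 65.1 to 655 in KO (median 398) and from 274 to 859 in WT (median 419), and its fold change was -0.37 with a standard error of 0.35 (p = 0.301, adjusted p = 0.786 by limma). The low end of Fbn1 came from KO.7, and without that library the fold change was -0.11. Fbln1, fibulin, and Postn, periostin, had fold changes of 0.06 and -0.02.

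Lox and Loxl1 cross-link collagen and elastin, and Timp1 inhibits matrix metalloproteinases. Lox was low, with medians of 22.6 in KO and 23.5 in WT, and was at 0 in KO.7 and KO.9, where a count of 0 allows values of up to 6.11 and 4.29. Loxl1 had medians of 223 and 216. Timp1 ranged from 0 to 571 in KO (median 314) and from 184 to 502 in WT (median 242). A single library, KO.5, held no Timp1 read, which allows a value of up to 4.62, and the lowest Timp1 value among the other 19 libraries was 106. The fold change of Timp1 was -0.72 with a standard error of 0.79 (adjusted p = 0.817 by limma), 0.10 without KO.5 and -0.0076 by edgeR. Without KO.5 the KO mean was 321 ± 137 (SD, n = 9), beside 289 ± 109.9 (SD, n = 10) in WT.

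The contractile genes overlapped between the genotypes in the same way. Acta2, smooth muscle alpha-actin and the usual mark of an activated stellate cell, ranged from 187 to 2775 in KO (median 764) and from 74.7 to 2986 in WT (median 715). All KO values lay inside the WT range. The fold change was 0.19 with a standard error of 0.62 (adjusted p = 0.952 by limma), -0.04 by edgeR and by DESeq2, and -0.15 by limma without WT.19. Tagln, transgelin, an actin-bundling protein, ranged from 155 to 2949 in KO (median 729) and from 42.0 to 2092 in WT (median 499). Its fold change was 0.41 with a standard error of 0.63 (adjusted p = 0.878 by limma), and 0.02 without WT.19. Myh11, the myosin heavy chain of differentiated smooth muscle, ranged from 379 to 4086 in KO (median 1667) and from 315 to 3539 in WT (median 1632). Its fold change was 0.17 with a standard error of 0.50 (adjusted p = 0.945 by limma), and -0.06 without WT.19.

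Cnn1, calponin of smooth muscle, had the smallest p and the largest fold change of the members in the limma fit with a pseudocount of 1. It ranged from 0 to 135 in KO (median 10.3) and from 0 to 220.0 in WT (median 32.3), and was at 0 in KO.3, KO.6, KO.7 and WT.16. A count of 0 allows values of up to 2.30, 7.71, 6.11 and 2.32 in these libraries. The fold change was -1.15 with a standard error of 1.04 (p = 0.281, adjusted p = 0.774 by limma). The size of this value depends on the treatment of low counts: it was -0.59 with a pseudocount of 10, -0.53 with library weights and -0.67 by DESeq2, where Dcn had 0.71, 0.88 and 0.69. Both genotypes thus held libraries with no read of Cnn1, and the highest values came from KO.10 and WT.14. Myl9, the regulatory light chain of smooth muscle myosin, and Tpm2, a tropomyosin, had fold changes of 0.07 and 0.31. Mylk, the kinase that activates the light chain, had medians of 428 in KO and 494 in WT and a fold change of -0.29 with a standard error of 0.41.

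**Figure D2:**
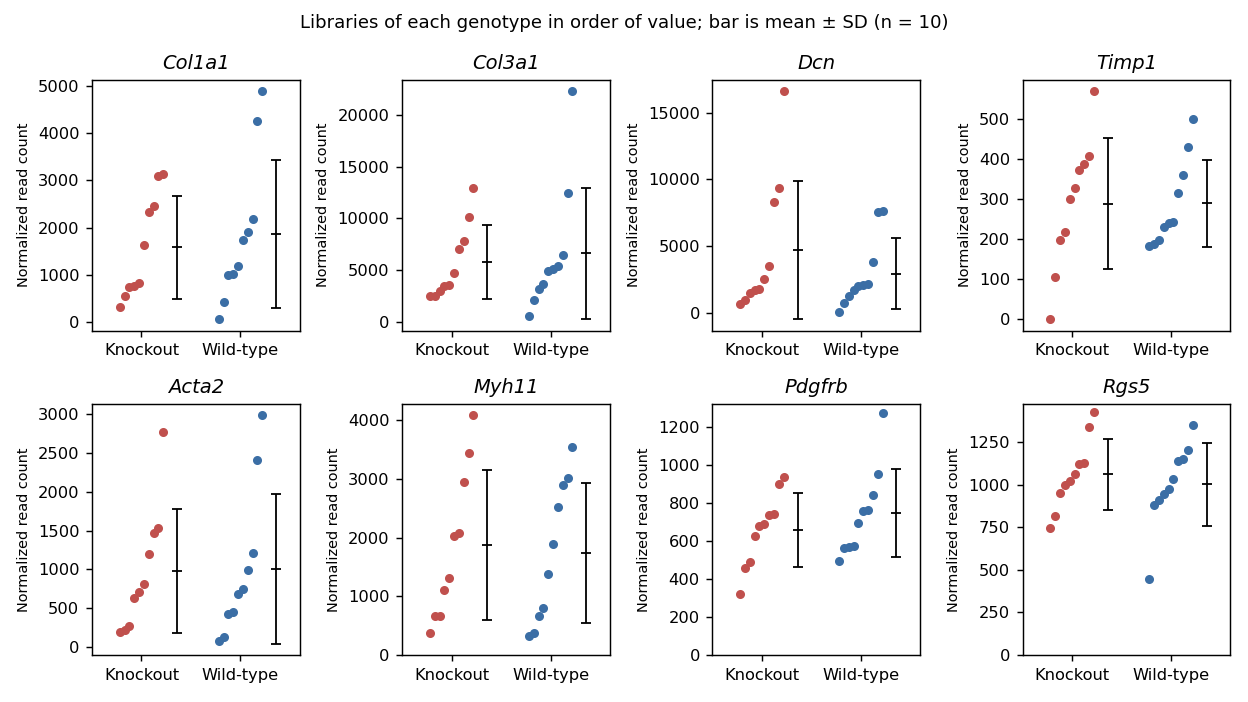
Normalized read count (linear axes, each gene on its own scale) of 8 members in the libraries of each genotype, KO in red and WT in blue, points in order of value, with the mean ± SD of 10 libraries as a bar. The KO and WT points overlap in every panel, the KO.5 point of Timp1 lies at 0 and the WT.16 point of Rgs5 at 446.

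The identity genes differed in spread, which was wide for some of them and smaller for Pdgfrb, Rgs5 and Cspg4. Pdgfra, the receptor that marks fibroblasts, ranged from 32.6 to 546 in KO (median 139) and from 0 to 660.0 in WT (median 144). The library at 0 was WT.19, where a count of 0 allows a value of up to 2.80. The fold change of Pdgfra was 0.53 with a standard error of 0.85 (adjusted p = 0.885 by limma), -0.14 by edgeR and -0.19 by limma without WT.19. Vim, the intermediate filament of mesenchymal cells, ranged from 1273 to 17116 in KO (median 4137) and from 724 to 17568 in WT (median 4204), with a fold change of 0.02 and a standard error of 0.54 (adjusted p = 0.994 by limma). Des, the muscle filament desmin that quiescent stellate cells also carry, and Thy1, a surface protein of fibroblasts, had fold changes of 0.11 and -0.10.

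Pdgfrb, Rgs5 and Cspg4, taken here as the pericyte genes among the members, had some of the smallest standard errors of the list. Des, another identity gene, had a standard error of 0.48. Pdgfrb, the receptor through which endothelial cells recruit pericytes, ranged from 322 to 941 in KO (median 685) and from 497 to 1276 in WT (median 728). Its fold change was -0.19 with a standard error of 0.19 (adjusted p = 0.800 by limma), and its interval ran from 0.67-fold to 1.15-fold. Rgs5, a regulator of G protein signalling that marks pericytes, ranged from 743 to 1425 in KO (median 1040.4) and from 446 to 1349.6 in WT (median 1005). Its fold change was 0.11 with a standard error of 0.16 (adjusted p = 0.874 by limma), and its interval ran from 0.85-fold to 1.36-fold. A 1.5-fold change of Rgs5 in either direction thus lay outside the interval. Cspg4, the NG2 proteoglycan of pericytes, had medians of 76.4 and 77.5 and an interval from 0.66-fold to 1.24-fold.

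Per kilobase of transcript, the median level over the 20 libraries was highest for Sparc (3923), Vim (1886), Dcn (1172) and Col3a1 (869), and lowest for Lox (4.96), Cspg4 (9.47) and Cnn1 (11.9). Col1a2 and Myl9 stood together at 685 per kilobase, whereas Acta2 was at 357, Myh11 at 253, Col1a1 at 237 and Pdgfrb at 128. These levels order the genes within these islet preparations and take no account of the number of cells that make each RNA.

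Within a genotype the members varied far more between libraries than most genes did. The SD of log2(value + 1) within a genotype had a median of 1.26 over the 30 members, beside 0.435 over all tested genes, and was above 1 for 24 of the 30 members. It was above the 90th percentile of all genes, 1.47, for 12 of them. The 4 members under 0.6 were Rgs5 (0.37), Pdgfrb (0.44), Cspg4 (0.47) and Sparc (0.52), and 3 of these mark pericytes. Their spread was small beside the other members, but 29 of the 30 members, all but Rgs5, stood above the median of all genes. Among genes of similar mean level Rgs5 was at percentile 61.8 of the SD, Pdgfrb at 72.8, Cspg4 at 28.7 and Sparc at 90.5. An SD this low did not hold for all pericyte genes. Outside the members the SD was 0.35 for Notch3 and 0.46 for Abcc9, but 0.73 for Higd1b, 0.75 for Ndufa4l2 and 1.15 for Kcnj8. The widest members were Cnn1 (2.52), Pdgfra (2.07), Timp1 (1.93) and Fbln1 (1.88). Of these, Timp1 and Pdgfra each had 1 library at 0, which widens the SD on this scale. For Timp1 the SD was 2.68 within KO, which holds KO.5 at 0, and 0.51 within WT. Without KO.5 its values ran only from 106 to 571. For Pdgfra the SD was 2.68 within WT, which holds WT.19 at 0, and 1.198 within KO. Cnn1 was at 0 in 4 libraries. In values, the highest library exceeded the lowest 262-fold for Dcn, 143-fold for Fbln1, 99.2-fold for Tpm2, 86.0-fold for Col1a1 and 40.0-fold for Acta2, but 3.19-fold for Rgs5 and 3.47-fold for Sparc. Of the 26 members with no library at 0, 20 spanned more than 10-fold. Some of the marker lists used below also spread widely: the median SD was 1.36 over the Schwann cell genes, 1.17 over the acinar genes and 1.00 over the duct genes. It was 0.90 over the pericyte, stellate and mesothelial genes and 0.37 over the endothelial genes.

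**Figure D3:**
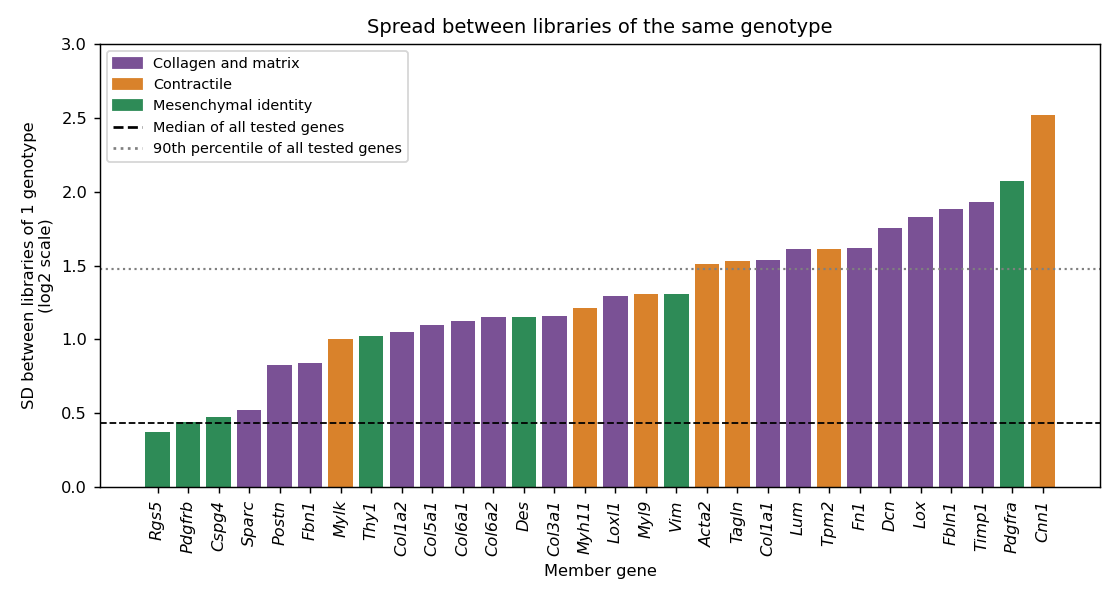
SD of log2(value + 1) between libraries of the same genotype (bars) for the 30 members in rising order, coloured by group, with the median (dashed line, 0.435) and the 90th percentile (dotted line, 1.47) of all tested genes. Rgs5, Pdgfrb, Cspg4 and Sparc stand at the left end and 12 members stand above the dotted line.

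Much of this spread followed the library. WT.19 was the lowest of all 20 libraries for 20 of the 30 members, while WT.20 was the highest for 12, KO.10 for 9 and WT.14 for 6. Among the lowest 5 libraries of each gene, KO.7 appeared for 28 members, WT.16 and WT.19 for 27 each and KO.2 for 26. Among the highest 5, WT.14 appeared for 27, KO.8 and WT.20 for 26 each and KO.10 for 24. Both ends of the order therefore held libraries of both genotypes. In WT.19 the collagen and matrix genes stood at a median of -2.93 and the contractile genes at -3.27 on the log2 scale, relative to each gene's median over the libraries.

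**Figure D4:**
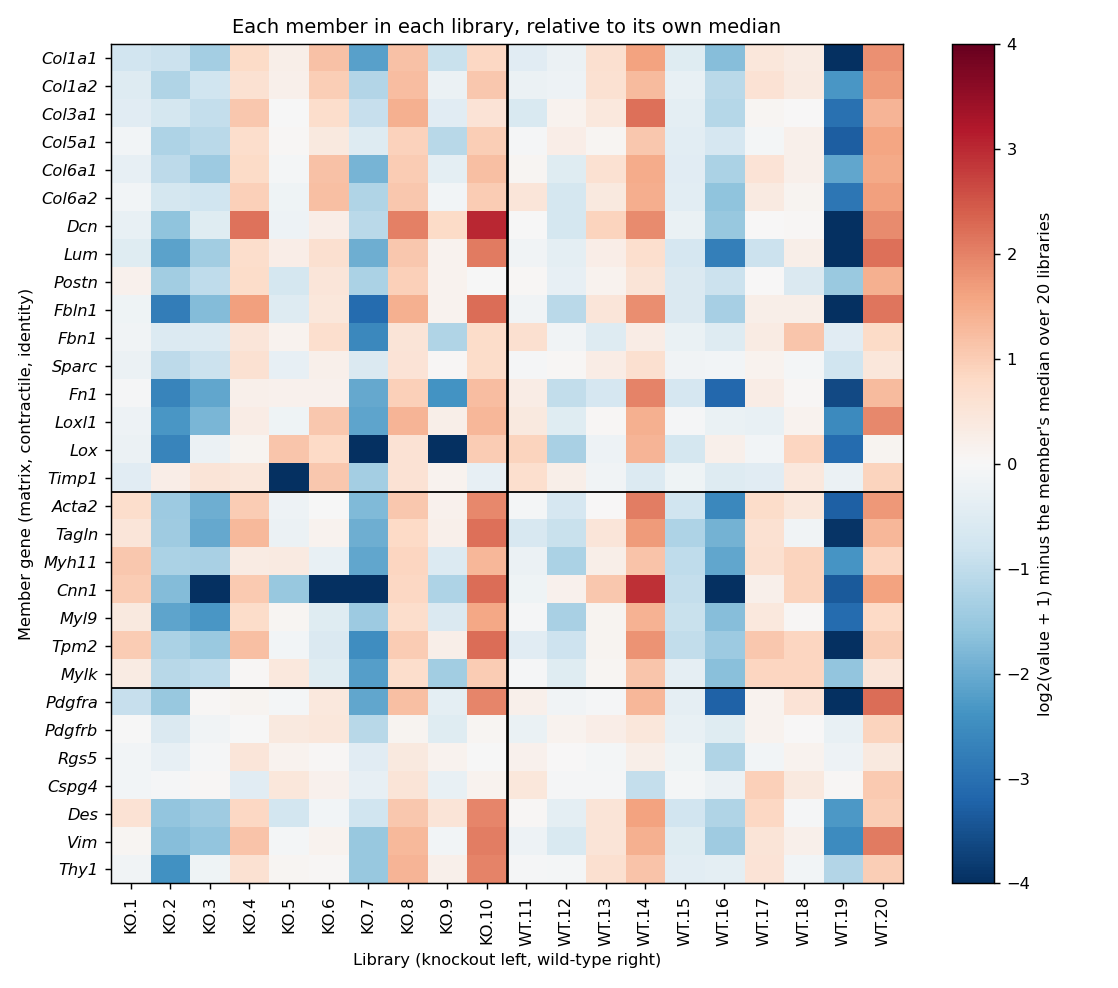
Colour gives log2(value + 1) minus the gene's median over the 20 libraries for each of the 30 members (rows, matrix, contractile and identity genes from the top) in every library (columns, KO left and WT right); differences beyond the ends of the scale take the end colour. WT.19, WT.16, KO.7 and KO.2 are low and WT.14, WT.20, KO.8 and KO.10 high in most rows, while Rgs5, Pdgfrb and Cspg4 vary less than the other members.

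The collagen and the contractile genes did not move in full step. In KO.6 the matrix genes stood 0.68 above and the contractile genes at -0.49, whereas in KO.1 the matrix genes stood at -0.24 and the contractile genes 0.72 above. The ratio of Acta2 to Col1a1 accordingly ran from 0.229 in KO.6 to 1.46 in KO.1, with medians of 0.559 in KO and 0.529 in WT. The ratio of Col1a2 to Col1a1, 2 chains of the same collagen, had a median of 2.79 and ran from 2.05 to 12.7, its highest value in WT.19.

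Relations between libraries were computed for 7 pairs, with permutation p-values of 100000 resamples adjusted over the 7. Col1a1 and Col3a1 had r = 0.95 and rho = 0.96 over the 20 libraries (adjusted permutation p = 2.33e-05, from the smallest p that these resamples can give), r = 0.93 within KO and r = 0.96 within WT. Col1a1 and Acta2 had r = 0.87 and rho = 0.85 (adjusted permutation p = 2.33e-05), with r = 0.76 within KO and 0.94 within WT. Acta2 and Myh11 had r = 0.94 and rho = 0.92 (adjusted permutation p = 2.33e-05). Without the 2 libraries farthest from the median these 3 values of r were 0.94, 0.83 and 0.91. These genes were thus high and low in largely the same libraries of both genotypes, with KO.1 and KO.6 departing from this as given above.
Pdgfrb and Rgs5, both expressed in pericytes, had r = 0.58 and rho = 0.57 over the 20 libraries (adjusted permutation p = 0.0126 and 0.0142). Without KO.7 and WT.20 these were r = 0.48 (adjusted permutation p = 0.0479) and rho = 0.43 (adjusted permutation p = 0.104), so rho no longer passed the threshold. Within the 10 KO libraries r was 0.64 (adjusted permutation p = 0.0807) and rho 0.58 (adjusted permutation p = 0.124). Within the 10 WT libraries r was 0.68 (adjusted permutation p = 0.0496) and rho 0.77 (adjusted permutation p = 0.0167). Pdgfrb and the endothelial gene Pecam1 had r = 0.71 and rho = 0.66 (adjusted permutation p = 0.000875 and 0.00355). Without KO.7 and WT.20 r was 0.51 (adjusted permutation p = 0.0479), and r was 0.62 within KO (adjusted permutation p = 0.0807) and 0.85 within WT (adjusted permutation p = 0.00247).
The relations with the acinar share of reads did not pass the threshold. Its r with Col1a1 was 0.40 and its rho 0.42 (adjusted permutation p = 0.0882 and 0.0748), and its r with Acta2 was 0.32 and its rho 0.35 (adjusted permutation p = 0.171 and 0.129). WT.19, the library lowest in most members, had an acinar share of 7.33%, and KO.7 had 11.9%.

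**Figure D5:**
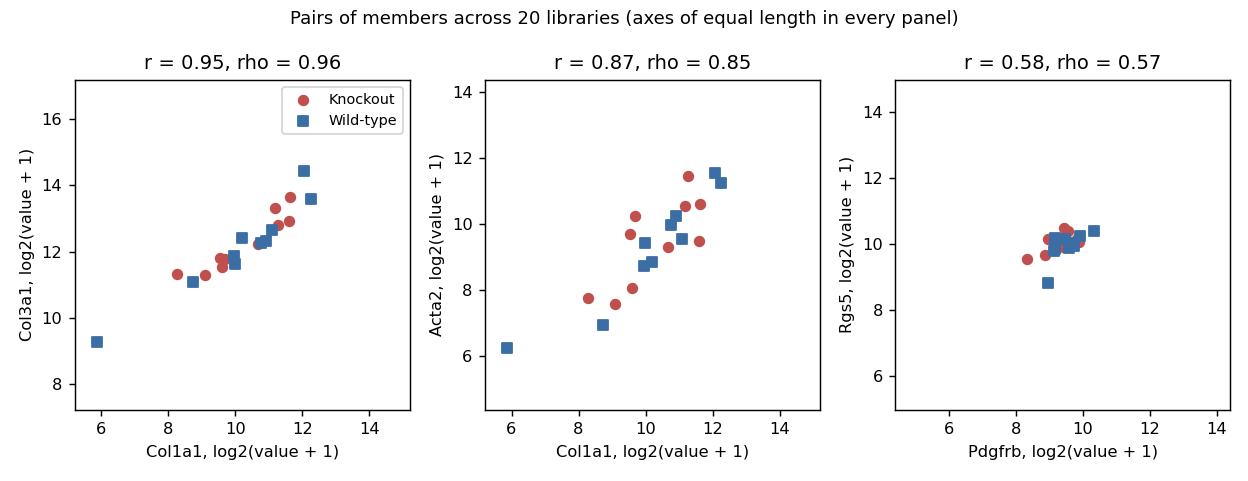
Log2(value + 1) of Col3a1 against Col1a1, Acta2 against Col1a1 and Rgs5 against Pdgfrb in the 20 libraries, KO as red circles and WT as blue squares, with axes of equal length in every panel. The first pair lies along a line over a wide range (r = 0.95), the next scatters more (r = 0.87), and Pdgfrb and Rgs5 cover a narrow range (r = 0.58).

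To compare the genotypes at a given level of collagen, log2 Col1a2 was added to the fit as a covariate, an alternative chosen after the data were seen. The median standard error of the other 29 members was then 0.254, beside 0.534 without it, and 22 of the 29 intervals lay within 2-fold. The limma fit with the covariate called 71 genes over the whole table at the adjusted threshold, and no member was among them. Without the covariate 8.94% of all tested genes stood at an unadjusted p under 0.05, and this share is not given here for the fit with it. With the covariate 2 members had an unadjusted p under 0.05. These were Dcn, with a fold change of 0.76 and a standard error of 0.29 (p = 0.0170, adjusted p = 0.355 by limma), and Lum, with 0.51 and 0.24 (p = 0.0490, adjusted p = 0.472 by limma). Neither passed the correction. The contractile genes Acta2, Tagln and Myh11 had fold changes of 0.22, 0.43 and 0.19 in this fit, with standard errors of 0.27, 0.26 and 0.28.

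Other genes of the same pathways also gave no call by limma. Of 30 further collagens and collagen-processing genes 17 had a fold change above 0 and 13 below, with a median of 0.03, none of them at an unadjusted p under 0.05. The smallest p values belonged to the basement membrane collagens Col15a1 (-0.24, p = 0.0644, adjusted p = 0.587 by limma) and Col4a2 (-0.28, p = 0.0658, adjusted p = 0.587 by limma). Of 20 further smooth muscle genes 8 were above 0 and 12 below, with a median of -0.06, and 1 had an unadjusted p under 0.05. This was Synpo2, an actin-binding protein of muscle, at 137 ± 74.2 in KO and 259 ± 99.8 in WT (SD, n = 10 each). Its fold change was -1.10 with a standard error of 0.36 (p = 0.00540, adjusted p = 0.318 by limma). Mrtfb, a myocardin-related coactivator of serum response factor, had -0.38 (p = 0.0562, adjusted p = 0.576 by limma).
Of 19 genes of TGF-beta and PDGF signalling, the main growth factor pathways of stellate cells, 8 were above 0 and 11 below, with a median of -0.08 and 1 gene at an unadjusted p under 0.05. Smad4, the common partner of the receptor-activated Smads, had a fold change of -0.24 with a standard error of 0.11 (p = 0.0421, adjusted p = 0.543 by limma), and Smad2 had -0.22 (p = 0.0562, adjusted p = 0.576 by limma).

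Markers of cell types next to the mesenchyme were read in the same fit, and 0 of them passed the adjusted threshold by limma. Of 16 pericyte, stellate and mesothelial genes 9 were above 0 and 7 below, with a median of 0.04, and 2 of them, Msln and Anpep, had an unadjusted p under 0.05. Msln, mesothelin, was at 237 ± 116 in KO and 123 ± 61.6 in WT (SD, n = 10 each), a fold change of 1.03 with a standard error of 0.35 (p = 0.00753, adjusted p = 0.352 by limma). Anpep had a fold change of 0.41 (p = 0.0275, adjusted p = 0.497 by limma). The 12 endothelial genes split 6 and 6 with a median of 0.003, led by Emcn (0.16) and Tie1 (0.13). Of 12 macrophage genes 8 were above 0, with a median of 0.39 and 3 at an unadjusted p under 0.05. Adgre1 had a fold change of 0.95 (p = 0.00531, adjusted p = 0.318 by limma) and Aif1 had 1.37 (p = 0.0180, adjusted p = 0.445 by limma). The 6 Schwann cell genes split 3 and 3.
Of 17 acinar genes 14 were above 0, with a median of 0.13, and of 7 duct genes 7 were, with a median of 0.15, none of either list at an unadjusted p under 0.05. The leading genes were Pnliprp1 (0.33) and Amy2a5 (0.28) of the acinar list and Cftr (1.22) of the duct list. Of 7 islet endocrine genes 3 were above 0 and 4 below, with Sst at -0.54 (p = 0.0122, adjusted p = 0.406 by limma) and Gcg at -0.57 (p = 0.0249, adjusted p = 0.480 by limma).

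The summed levels of some of these lists were low and high in the libraries that set the range of the members. The summed endothelial level ran from 33256 to 74767 in KO and from 36623 to 65517 in WT, and stood at 36623 in WT.19 and 33256 in KO.7, against 74767 in KO.10 and 65517 in WT.20. The summed duct level ran from 19702 to 63633 in KO and from 14887 to 51338 in WT, lowest in WT.19 and highest in KO.10. Of the endothelial genes Cldn5 was at 0 in at least 1 library, and of the duct genes Cftr was. The summed level of the contractile members ran from 1386 to 19762 in KO and from 754 to 16750.4 in WT, 26.2-fold over all libraries, beside 2.25-fold for the endothelial, 4.27-fold for the duct and 14.2-fold for the acinar genes. The acinar and the islet endocrine sums went with the members in some libraries and not in others. KO.7, low in most members, had an acinar sum of 14163500, above the median of 12626000. Its islet endocrine sum was 38863000, above the median of 26540700. WT.19, the lowest library for most members, had sums of 5046800 and 25014400, both below these medians. KO.10, high in most members, had the highest acinar sum, 28920600, and an islet endocrine sum of 34746000. The part of these sums in the order of the libraries was not tested.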

How the data were processed

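RNA-seq libraries of islets from 10 P2Y14-knockout and 10 wild-type mouse samples were prepared with the TruSeq RNA v2 kit, per the labels' protocols. The deposited signal values are, per the file's name, read counts of each gene normalized with DESeq, that is scaled by 1 size factor per library. FastQC, TopHat 1.3.3, Bowtie 0.9.9, Cufflinks 1.3.0, DESeq 1.16.0 and the build mm9 are named in the submitters' processing notes; for the read counter, strand setting and annotation, nothing is given in the sources used here. Gene names came from GENCODE M21, which named 23958 of 26211 identifiers and is on GRCm38, so its coordinates were not used; levels per kilobase use its transcript lengths. Promoter sequences came from RefSeq on GRCm38.p6.

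In each column 100% of the non-zero values were whole multiples of 1 step, within 0.05 reads, and dividing by the step gave reads. In KO.8 and WT.18 the step lies so close to 1 that an automatic check could not tell these values from unscaled counts; both were used in the same way. Depth was 34520628 to 199847246 reads per library, and a count of 0 was taken to allow 3 counts, which covers counting error only.

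Genotypes were compared with limma 3.58.1 (R 4.3.3) on log2(value + 1) over the 17482 genes whose mean reached 10, with a mean trend, genotype as the only term, Benjamini-Hochberg adjustment and a threshold of 0.05. The fit was tested on simulated data. Intervals are 95% confidence intervals of that fit. Alternatives were pseudocounts of 0.5 and 10, no filter or a minimum mean of 100, quantile normalization, TMM factors, library weights, covariates (acinar share, Xist and, chosen after seeing the data, Col1a2), count tests of the recovered reads with DESeq2 1.42.0 and edgeR 4.0.16, and leaving out each library. Relations used permutation tests (scipy 1.17.1) with 100000 resamples, two-sided. Among 90 pairs of libraries within a genotype none looked like repeated deposits of 1 library (chi-square divided by its degrees of freedom was 76.7 or more); this does not show that they came from separate animals.

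The members and gene lists were chosen with earlier results of these data known. Named with full values were 12 members chosen by role, the 3 members with the smallest p and the 3 with the largest fold change, and of each list the 2 genes with the smallest p; the genes that this names in the Schwann cell list and 1 of the duct list are not reported here.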

Additional observations from a re-analysis of the deposited data

Results flagged for a closer look

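Each of the 30 members was checked for a library that stands apart on the log2(value + 1) scale within its 10 KO and its 10 WT libraries, 60 groups in all, by whether its gap to the nearest other library took up more of the whole range than Dixon's 95% critical value for 10 values. Chance marks about 1 group in 20, and 6 did so here. WT.19 stood below the other WT libraries for Col5a1 at 18.7, for Dcn at 63.5, for Fbln1 at 14.9 and for Tpm2 at 66.3. In the same library the summed endothelial level was 36623 and the acinar share 7.33%, and their part was not tested. WT.16 stood below the other WT libraries for Rgs5 at 446.

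KO.5 held 0 reads of Timp1 and stood below the other KO libraries. Timp1 belongs to the 10429 genes with a median of at least 200, and 3 of these genes were at 0 in KO.5, beside 0 to 7 in the other libraries. The reason was not tested.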

How the results depend on the processing

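No member passed the adjusted threshold under any of the 32 alternatives, and the smallest adjusted p of a member was 0.355 (limma, Dcn, with Col1a2 as a covariate). The alternative with a mean of at least 100 left out Lox, Cnn1 and Cspg4. No paired analysis was possible because the wild-type columns are numbered 11 to 20 and carry no replicate number of the labels. The count of genes called over the whole table was 29 with a mean of at least 100, 163 with library weights, 80 with the acinar share as a covariate and 137 with DESeq2, against 49. With 1 library fewer it lay between 27 and 73, and was 27 without KO.4, 32 without KO.8 and 30 without WT.19.

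Of 356 fold changes of members under the other alternatives 21 changed sign, in 11 members, and 11 members never changed sign under any alternative, leaving out libraries included. With edgeR and DESeq2 the fold changes were -0.24 and -0.24 for Col1a1, -0.20 and -0.20 for Col3a1, -0.14 and -0.13 for Col5a1, -0.012 and -0.0094 for Col6a2, -0.043 and -0.042 for Acta2, -0.14 and -0.13 for Pdgfra, and 0.18 and 0.19 for Thy1. With library weights they were 0.10 for Col1a2, 0.075 for Col6a1, 0.28 for Postn, 0.10 for Fn1 and 0.10 for Thy1. With the acinar share as a covariate Col1a2 had 0.039, and with quantile normalization Col5a1 had -0.0057. The cause was not tested.

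Leaving out 1 library at a time changed the sign in 19 members. The fold changes ran for Col1a1 from -0.41 to 0.30, Col1a2 from -0.28 to 0.16, Col3a1 from -0.21 to 0.37, Col5a1 from -0.32 to 0.22, Col6a1 from -0.35 to 0.082, Col6a2 from -0.082 to 0.42 and Postn from -0.17 to 0.15. They ran for Fbln1 from -0.44 to 0.37, Fn1 from -0.47 to 0.15, Timp1 from -0.92 to 0.10, Acta2 from -0.15 to 0.44, Myh11 from -0.058 to 0.38 and Myl9 from -0.22 to 0.29, and for Tpm2 from -0.14 to 0.59, Pdgfra from -0.19 to 0.85, Rgs5 from -0.018 to 0.16, Des from -0.14 to 0.29, Vim from -0.25 to 0.26 and Thy1 from -0.32 to 0.17. The lowest value of these came without WT.19 for all but Timp1, Rgs5 and Thy1, and the Timp1 value above 0 came without KO.5. The median of the matrix members ran from -0.33 without WT.19 to 0.16 without WT.20, and that of the contractile members from -0.15 without WT.19 to 0.38 without KO.7. Depth limits the values of members near 0, where a count of 0 allowed up to 7.71 (Cnn1 in KO.6).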

Other observations

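Wt1, a transcription factor of mesothelial and some mesenchymal cells, was at 0 in 9 of the 20 libraries and had a median of 15.8. It stood at 737 in WT.14, 410 in KO.4 and 231 in KO.8, 3 libraries that also stood above the median for most collagen members. Other libraries high in the matrix genes had little Wt1: it was at 82.7 in WT.20, 48.6 in KO.10 and 0 in KO.6. Krt19, a keratin of duct cells, ran from 61.6 in WT.19 to 5270 in WT.20, which were the lowest and the highest library of Col1a1. Notch3, a receptor of pericytes and smooth muscle cells, ran from 322 to 726 over the 20 libraries, a 2.26-fold range. Kcnj8, another pericyte gene, ran from 8.14 to 138, a 17.0-fold range. Ccn2, a matrix protein of activated fibroblasts, ran from 87.4 in WT.16 to 1283 in WT.20. These genes were picked after their values were seen, and no test was run on their order.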
